A study of Mus musculus with 12 samples.

Results

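The genes of fatty acid oxidation and the target genes of PPAR-alpha were described in the livers of 12 mice. The set was a fixed list of 36 genes, chosen by name for their place in fatty acid breakdown or as textbook PPAR-alpha targets. The names were not picked by their values in a contrast, but earlier results of these data were known when they were chosen. All 36 were among the 22537 genes of the count table, and all 36 were among the 13968 genes with enough counts to be tested. The groups were 3 livers each of AHR KO, AHR Flox, ARNT KO and ARNT Flox. AHR, the aryl hydrocarbon receptor, is a transcription factor switched on by small molecules, and it binds DNA as a dimer with ARNT. The Flox mice carried the floxed allele of Ahr or of Arnt and served as the controls of the knockout of that gene. All mice were adult females of the C57BL/6 background, 6 months old, and all had received a high-fat diet for 13 weeks, so no group shows the genes on a normal diet. The series title places the loss of AHR or ARNT in the liver. No source used here gives the recombinase line, the deleted exons or whether the mice were littermates.

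Hepatocytes take up fatty acids, activate them to acyl-CoA, and pass them through the carnitine shuttle into mitochondria, where beta oxidation shortens the chain and feeds ketone body synthesis. Peroxisomes shorten very long chains, and microsomal Cyp4a enzymes oxidise the far (omega) end of the chain. PPAR-alpha is a nuclear receptor that fatty acids activate. Paired with RXR it binds a direct repeat of AGGTCA with a spacer base and raises transcription of genes in each of these steps, and in mouse liver the Cyp4a and acyl-CoA thioesterase genes are among its most responsive targets.

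Each library came from 1 mouse, and the deposited values were read counts per gene, with 23585909 to 33255004 counts per library. Levels are given in CPM, counts scaled to library size with TMM factors. Log2 changes are from edgeR, each ± its SE, and p-values were adjusted over all tested genes. Before any result, 1 library has to be named. ARNT KO replicate 3 stood apart from the other 11: on the first principal component of all tested genes, which held 43.0% of the variance, it lay at 65.3 while the other libraries lay between −30.9 and 30.3. Its Alb level was 5740 CPM, against 51926 and 53685 CPM in ARNT KO replicates 1 and 2, and the summed level of 5 of 5 cholangiocyte markers was 308 CPM in it, against 45.8 to 80.3 CPM in those replicates and 71.6 to 112 CPM in ARNT Flox. ARNT KO results are therefore also given without it. Hepatocyte markers were present in all libraries (10 of 10 tested), and the adipocyte and striated muscle lists summed to at most 4.26 and 0.201 CPM in any library. In a bulk liver sample, fewer cells of a type and less RNA per cell cannot be told apart. Arnt was at 25.2, 23.9 and 19.0 CPM in ARNT KO, against 47.8, 52.5 and 50.3 CPM in ARNT Flox, a fall below its controls in all 3 libraries (log2 change −1.15 ± 0.12, adjusted p = 0.00601). Ahr was at 84.4, 94.8 and 80.3 CPM in the libraries labelled AHR KO, against 53.9, 78.8 and 72.4 CPM in AHR Flox, so counts over the whole gene did not fall with the label. Such counts cannot check the loss of single exons, and the label was kept. Alb, the albumin gene, was at 7088, 5491 and 6352 CPM in AHR KO, against 78433, 89274 and 84389 CPM in AHR Flox.

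The members spanned a wide range of levels per length. In RPKM, which scales reads by exon length and library size, the mean over 12 libraries was 4463 for Fabp1, the liver fatty acid binding protein, with a range of 2229 to 5463. Acaa1b, a peroxisomal thiolase gene, followed at 789 RPKM (503 to 1043), and Acaa2, the mitochondrial thiolase gene, at 618 RPKM (378 to 832). The ranges of Acaa1b and Acaa2 overlapped each other but not that of Fabp1. Cyp4a14 had 292 RPKM and Cyp4a10 had 243 RPKM, with ranges of 54.5 to 822 and 101 to 591. Ppara itself, the gene of the receptor, had 153 RPKM (95.7 to 185). The lowest members were Fgf21, a hormone secreted by the liver, at 4.60 RPKM, Pdk4, a kinase that inhibits pyruvate dehydrogenase, at 3.89 RPKM, and Cyp4a31 at 3.52 RPKM.

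**Figure D1:**
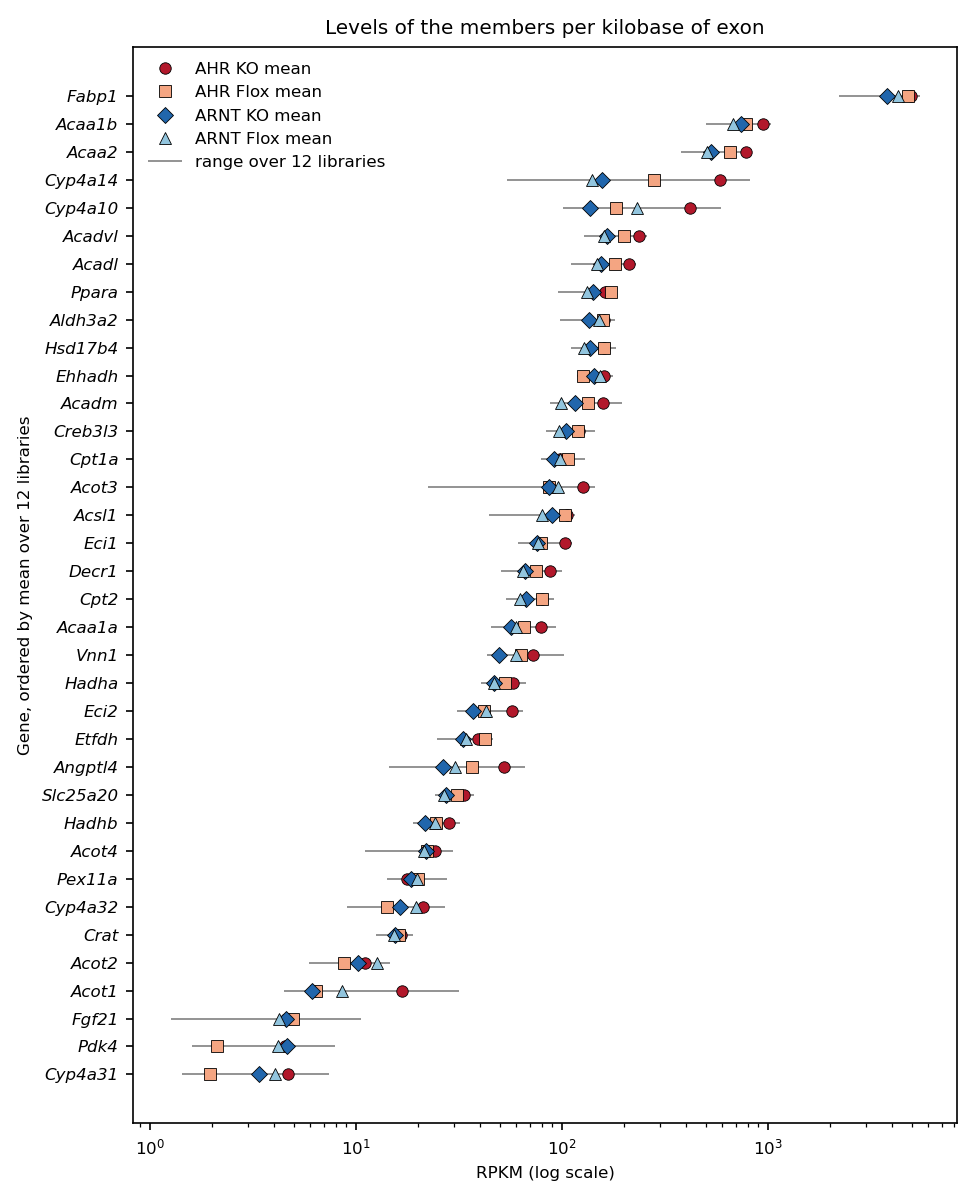
Level of each of the 36 members in RPKM on a log axis, ordered by the mean over 12 libraries. Symbols are the means of the 4 groups and lines the range over libraries; Fabp1 lies highest and Cyp4a31 lowest, and the widest lines belong to Cyp4a14, Cyp4a10, Acot3, Fgf21 and Acot1.

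In the libraries labelled AHR KO the highest log2 changes among the members were those of Acot1, at 1.39 ± 0.44, of the omega-hydroxylase genes Cyp4a31, at 1.25 ± 0.46, and Cyp4a10, at 1.19 ± 0.33, and of Pdk4, at 1.11 ± 0.47. None of them passed the test over all genes: edgeR called 0 of 36 members at an adjusted p under 0.05, where 0.0788% of all tested genes were called. The values lay mostly above 0 all the same: 30 members had a log2 change above 0 and 6 below, with a median of 0.22, beside a median of 0.0052 and 51.1% above 0 over all tested genes. At an unadjusted p under 0.05 there were 8 members with higher values, where 6.33% of all genes were, and 0 with lower values, where 5.58% were. These 8 were Cyp4a10, Acot1, Eci2, Eci1, Cyp4a31, Ehhadh, Pdk4 and Cyp4a14. DESeq2 called 2 members higher, Cyp4a10 and Acot1, and limma-voom called 0. The 8 alternatives of tool, size factors, filter, groups or block called 10 to 359 of all tested genes. Such ranges, here and below, pool the settings and do not give the share of 1 tool alone. Whether the DESeq2 calls among members exceed its own share over all tested genes cannot be read from them. In 6 of 36 members all 3 AHR KO libraries lay above all 3 AHR Flox libraries (Acadl, Acaa2, Eci1, Ehhadh, Cyp4a10 and Cyp4a31), where 11.7% of all tested genes did so, and in 0 members did all 3 lie below, where 9.46% did so. With ARNT KO replicate 3 left out, edgeR again called 0 of 36, where 0.966% of all tested genes were called, with 12 at an unadjusted p under 0.05, all with higher values (8.85% of all tested genes), while DESeq2 called 5 and limma-voom 0. The 4 alternatives without ARNT KO replicate 3, these tools among them, called 84 to 612 of all tested genes.

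The AHR KO values split by role and by mouse. The median log2 change was 1.07 over the 5 genes of omega oxidation and 0.34 over the 5 genes of thioesterases and pantetheinase, and both roles had all 5 members above 0. It was 0.28 over the 5 peroxisomal genes, 0.23 over the 10 mitochondrial genes, 0.04 over the 6 genes of activation and carnitine entry, and 0.03 over the 5 regulators. Replicate 3 of AHR KO exceeded every AHR Flox library in 26 members and was below all of them in 0, and replicate 1 exceeded them in 22 and was below in 3. Replicate 2 exceeded them in 10 and was below in 15. Over all tested genes the share above all AHR Flox libraries was 29.7%, 31.3% and 31.4% in AHR KO replicates 1, 2 and 3. The share below all of them was 29%, 28.3% and 29.3%. AHR KO replicate 3 was the highest of all 12 libraries for 18 members. Replicates 1 and 3 were thus above their controls for most members and replicate 2 was not. Leaving out ARNT KO replicate 3 and 1 other library gave 0 to 5 called members. The 5 came from leaving out AHR KO replicate 2: Cyp4a10, Cyp4a14, Cyp4a31, Eci2 and Acaa1a were then called higher, where 0.306% of all tested genes were. That library was seen to lack the pattern in these same values. More calls among members were to be expected without it, so these 5 are no separate support. Acot3 was called higher when AHR Flox replicate 2 was left out in its place. That library held the highest AHR Flox value of Acot3, at 417 CPM, against 227 and 256 CPM in replicates 1 and 3. Leaving it out raises the change of Acot3, so this call is no separate support either. The fits without ARNT KO replicate 3 and another library called 24 to 105 of all tested genes in AHR KO. The summed level of the 9 hepatocyte markers other than Alb was 43477 to 56148 CPM in AHR KO, against 39887 to 41835 CPM in AHR Flox. With Alb the order was the reverse: the sum of all 10 was 48968 to 63236 CPM in AHR KO, against 120267 to 130426 CPM in AHR Flox. Stellate markers had 6 of 6 below 0, at a median of −0.24, with sums of 212 to 294 CPM in AHR KO, against 239 to 318 CPM in AHR Flox. The other lists were mixed: 7 of 10 hepatocyte, 3 of 6 endothelial, 2 of 5 macrophage, 2 of 5 cholangiocyte and 4 of 7 lymphocyte markers were above 0. The part of these markers in the members' values was not tested.

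**Figure D2:**
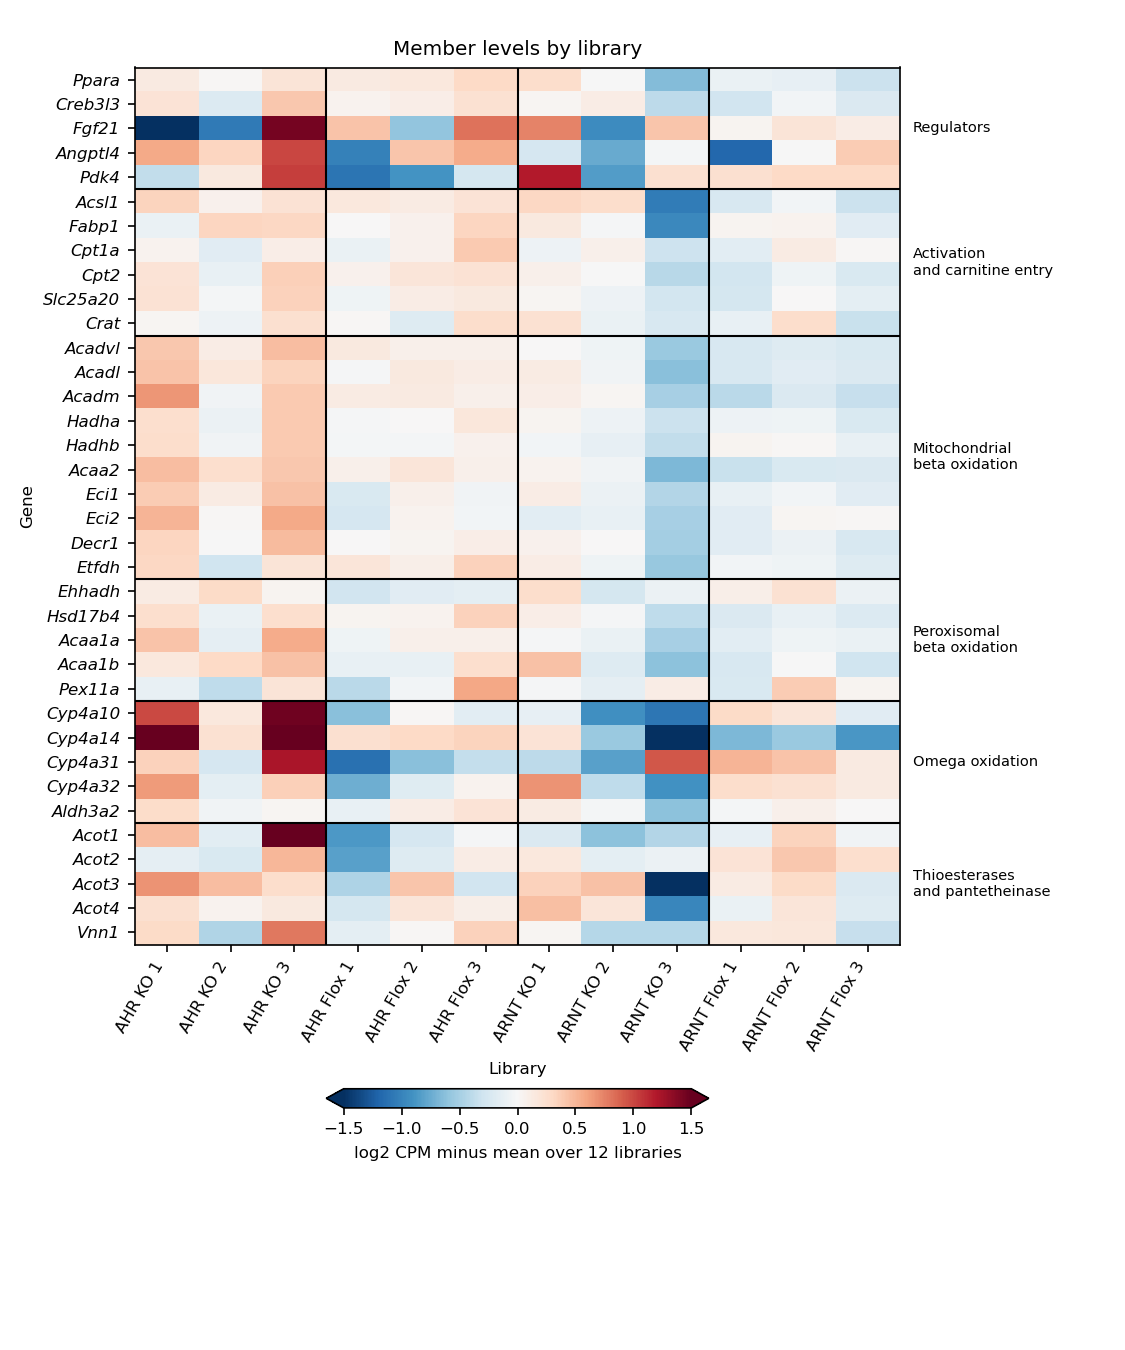
Log2 CPM of each member minus its mean over the 12 libraries, with libraries as columns and members as rows by role; colours end at −1.5 and 1.5. AHR KO replicates 1 and 3 are red for most members while AHR KO replicate 2 is pale, and ARNT KO replicate 3 is blue for most members.

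In ARNT KO the members had no common direction, and the lowest log2 change was that of Cyp4a10, at −0.76 ± 0.33. edgeR called 0 of 36 members, where 0.0573% of all tested genes were called, with 1 member at an unadjusted p under 0.05 (Cyp4a10, lower, where 2.53% of all tested genes were lower) and 0 called by DESeq2 or limma-voom. There were 18 members above 0 and 18 below, at a median log2 change of −0.0039, beside a median of 0.0090 and 52.6% above 0 over all tested genes. All 3 ARNT KO libraries lay below all 3 ARNT Flox libraries in 2 of 36 members, Acot1 and Acot2, where 4.9% of all tested genes did so, and above in 0, where 5.94% did so. The 3 mice differed. ARNT KO replicate 3 was the lowest of all 12 libraries for 26 of 36 members and lay below all 3 ARNT Flox libraries for 30, while 34.1% of all tested genes lay below them in that library. ARNT KO replicate 1 lay above all ARNT Flox libraries in 25 members and below in 3, where 33.6% and 34% of all tested genes did so. Replicate 2 lay above in 11 and below in 11, where 29.5% and 29.3% did so. The counts of replicate 2 were thus near the share over all tested genes.

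Without ARNT KO replicate 3 the ARNT KO values moved up: 26 members lay above 0 and 10 below, at a median log2 change of 0.12, beside a median of 0.0015 and 50.3% above 0 over all tested genes. In the same fit the hepatocyte markers had 7 of 10 above 0, at a median of 0.17, and their sum without Alb came to 42454 CPM in ARNT KO replicate 1 and 42102 CPM in replicate 2, while the ARNT Flox libraries held 32530 to 37716 CPM. With Alb the order was the reverse: the sum was 94380 and 95787 CPM in those ARNT KO libraries, against 102234 to 125609 CPM in ARNT Flox. Macrophage (5 of 5 tested), endothelial (6 of 6) and cholangiocyte markers (5 of 5) were all below 0, at medians of −0.20, −0.071 and −0.47. The macrophage sum was 226 and 232 CPM in those ARNT KO libraries, against 256 to 268 CPM in ARNT Flox. The part of these markers in the members' shift was not tested. edgeR still called 0 of 36, where 1.37% of all tested genes were called, with 7 members at an unadjusted p under 0.05 (6 with higher values, where 7.48% of all genes were, and 1 with lower, where 8.94% were), and limma-voom called 0. DESeq2 called 1, Acsl1, which activates long-chain fatty acids to acyl-CoA. The 4 alternatives without ARNT KO replicate 3, these tools among them, called 141 to 581 of all tested genes. Both remaining ARNT KO libraries lay above all 3 ARNT Flox libraries in 11 members, where 19% of all tested genes did so, and below in 3, where 18.6% did so. The 11 were Ppara, Creb3l3, Acsl1, Cpt2, Acadvl, Acadl, Acadm, Acaa2, Decr1, Hsd17b4 and Acot3, and the 3 were Cyp4a31, Acot1 and Acot2.

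**Figure D3:**
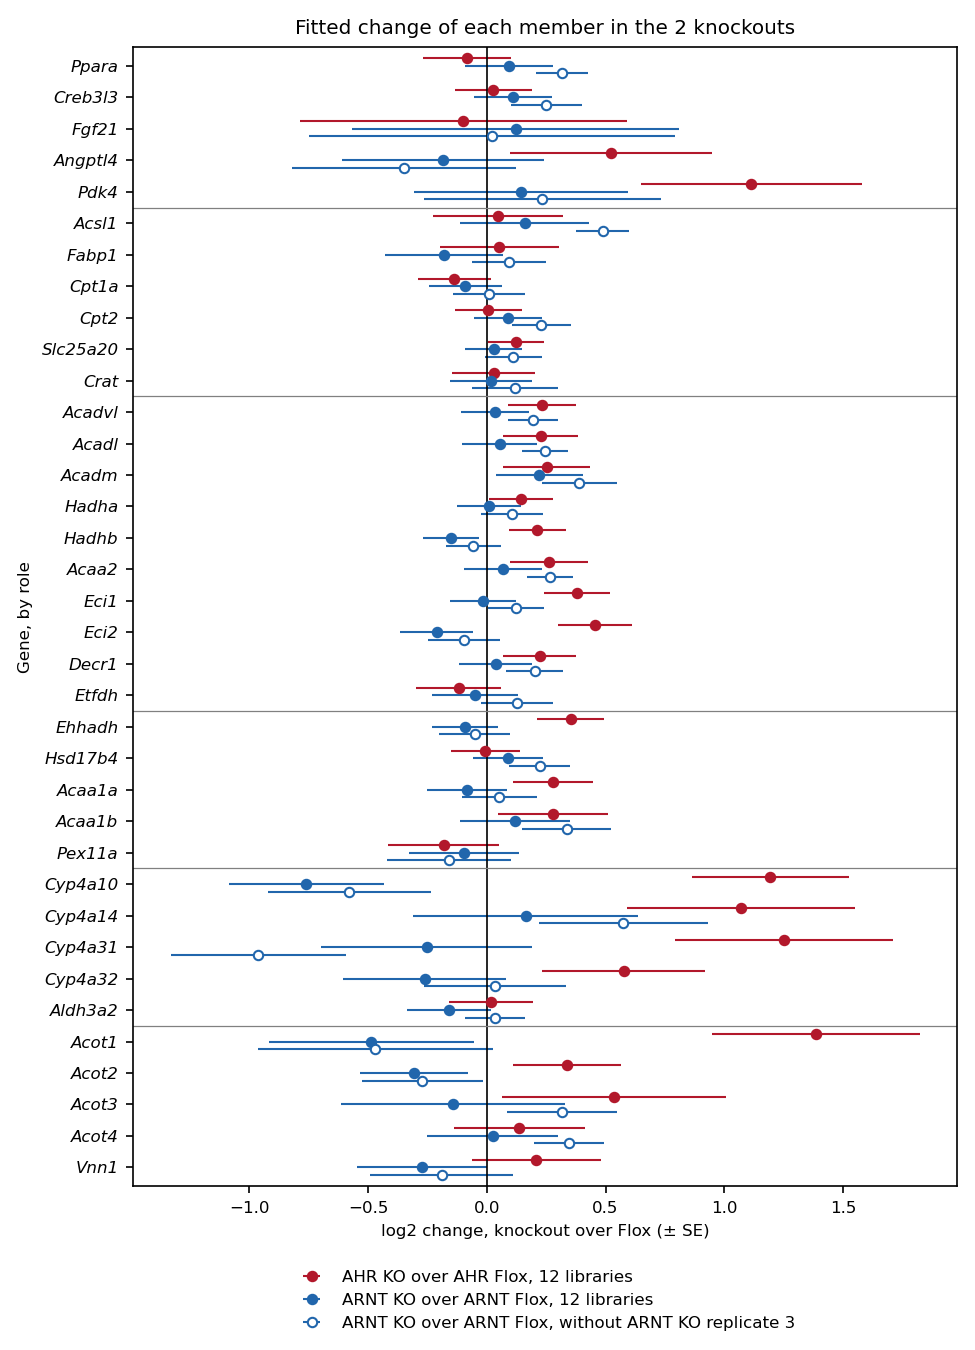
Fitted log2 change of each member, knockout over its Flox control, with bars of 1 SE; genes run down the page by role. Red is AHR KO, filled blue is ARNT KO in the fit of 12 libraries and open blue is ARNT KO without replicate 3. The AHR KO points of Acot1, Cyp4a31, Cyp4a10, Pdk4 and Cyp4a14 lie farthest to the right, and the open blue points lie to the right of the filled ones for most members.

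The 2 knockouts were compared by the test of the difference, the ARNT KO change minus the AHR KO change. edgeR called 0 of 36 members, where 0.043% of all tested genes were called, with 5 at an unadjusted p under 0.05, each with the lower change in ARNT KO, where 5.02% of all tested genes were so: Cyp4a10, Acot1, Eci2, Cyp4a31 and Ehhadh. DESeq2 called 1 (Cyp4a10) and limma-voom 0, or 2 with sample quality weights (Cyp4a10 and Cyp4a31). The 7 alternatives of tool, size factors, filter or block called 4 to 238 of all tested genes. The median difference over the members was −0.19, with 27 of 36 below 0, beside 47.9% of all tested genes. It was −0.012 without ARNT KO replicate 3, with 19 of 36 below 0, beside 49.8%. In that fit edgeR called 0 of 36, where 1.38% of all tested genes were called, with 6 at an unadjusted p under 0.05, where 17.2% were. DESeq2 called 2 (Cyp4a10 and Cyp4a31) and limma-voom 0. The 4 alternatives without ARNT KO replicate 3, these tools among them, called 128 to 568 of all tested genes.

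Omega oxidation held Cyp4a10, the member with the largest difference between the knockouts in 12 libraries; without ARNT KO replicate 3 the differences of Cyp4a31 and Acot1 were larger, at −2.21 and −1.85. The Cyp4a genes encode microsomal fatty acid omega-hydroxylases and lie side by side on chromosome 4 (GRCm38, the assembly that mm10 names): Cyp4a14 at chr4:115486200-115496142, minus strand; Cyp4a10 at chr4:115518264-115533649, plus strand; Cyp4a31 at chr4:115563649-115579015, plus strand; and Cyp4a32 at chr4:115600969-115621602, plus strand. The coding sequence of Cyp4a10 was 96.59% identical to that of Cyp4a31, 97.18% to Cyp4a32 and 75.11% to Cyp4a14. The start of each is shown because Cyp4a10, Cyp4a31 and Cyp4a32 can share reads: bases 1 to 90 of the coding sequence from the GENCODE M21 transcripts, 5′ to 3′, with capitals at the bases that differ from Cyp4a10, which number 5 in Cyp4a31, 1 in Cyp4a32 and 34 in Cyp4a14.
Cyp4a10: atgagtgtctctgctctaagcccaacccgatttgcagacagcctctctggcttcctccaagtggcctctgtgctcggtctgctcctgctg
Cyp4a31: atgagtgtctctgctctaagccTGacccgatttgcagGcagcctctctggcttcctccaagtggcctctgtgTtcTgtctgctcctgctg
Cyp4a32: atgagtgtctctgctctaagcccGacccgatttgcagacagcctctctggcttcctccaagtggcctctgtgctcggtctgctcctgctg
Cyp4a14: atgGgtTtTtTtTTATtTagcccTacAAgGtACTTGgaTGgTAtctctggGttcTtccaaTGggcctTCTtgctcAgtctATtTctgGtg
Of all windows of 50 bases in the Cyp4a10 coding sequence, 19.55% occurred unchanged in Cyp4a31, 34.64% in Cyp4a32 and 0 in Cyp4a14. No source used here says how reads that match several genes were assigned, so the split among Cyp4a10, Cyp4a31 and Cyp4a32 is uncertain, and that of Cyp4a14 is less exposed to it.

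Cyp4a10 had 898, 505 and 1246 CPM in AHR KO, against 293, 459 and 406 CPM in AHR Flox. The AHR KO libraries all lay above the controls, replicate 2 by the least, and the log2 change was 1.19 ± 0.33 (SE), a fitted 2.29-fold level (adjusted p = 0.164). Without AHR KO replicate 3 the change was 0.85, and the adjusted p ran from 0.0139 to 0.516 over the alternatives with 11 or 12 libraries, the lowest from DESeq2. In the other line, Cyp4a10 had 415, 239 and 213 CPM in ARNT KO, against 555, 512 and 403 CPM in ARNT Flox. ARNT KO replicates 2 and 3 were below all controls, and replicate 1 lay just inside the control range, at a log2 change of −0.76 ± 0.33 (adjusted p = 0.815), and −0.58 ± 0.34 without replicate 3. The ARNT KO change minus the AHR KO change was −1.95 ± 0.46 (adjusted p = 0.230), with a range of 0.00458 to 0.541 over the same alternatives, DESeq2 and limma-voom with quality weights being the ones under 0.05. This difference was −1.77 ± 0.46 (adjusted p = 0.0875) without ARNT KO replicate 3.

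Cyp4a31 had 10.1, 6.60 and 18.6 CPM in AHR KO, against 3.61, 5.09 and 6.13 CPM in AHR Flox. All 3 AHR KO libraries were above the controls, at a log2 change of 1.25 ± 0.46, adjusted p = 0.303, which was 0.75 without AHR KO replicate 3. Cyp4a31 had 5.99, 4.45 and 15.1 CPM in ARNT KO, against 11.2, 10.6 and 8.67 CPM in ARNT Flox. ARNT KO replicate 3 was the highest of that line here, against its low rank for most members, and replicates 1 and 2 lay below all ARNT Flox libraries. The log2 change in ARNT KO was −0.25 ± 0.44 (adjusted p = 0.999) in 12 libraries and −0.96 ± 0.37 (adjusted p = 0.234) without that library. The difference between the knockouts was −1.51 ± 0.64 (adjusted p = 0.492), or −2.21 ± 0.50 (adjusted p = 0.0572) without it, within 0.0424 to 0.738 over the alternatives with 11 or 12 libraries.

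Cyp4a14 had 1751, 698 and 2138 CPM in AHR KO, against 700.4, 732 and 751 CPM in AHR Flox. Replicates 1 and 3 of AHR KO were far above the controls and replicate 2 was just below all of them, so the groups overlapped. The log2 change was 1.07 ± 0.48, adjusted p = 0.407. Cyp4a14 had 685, 403 and 142 CPM in ARNT KO, against 371, 404 and 323 CPM in ARNT Flox. The 3 ARNT KO libraries lay above, between and below the controls, at a log2 change of 0.16 ± 0.47, adjusted p = 1.000, and at 0.57 ± 0.36 (adjusted p = 0.450) without replicate 3.

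Cyp4a32 had 40.7, 23.5 and 33.5 CPM in AHR KO, against 15.7, 22.9 and 27.0 CPM in AHR Flox. The groups overlapped, with AHR KO replicates 1 and 3 on top, at a log2 change of 0.58 ± 0.34, adjusted p = 0.554. Cyp4a32 had 41.6, 20.1 and 13.9 CPM in ARNT KO, against 31.2, 30.6 and 28.7 CPM in ARNT Flox. ARNT KO replicate 1 was above and replicates 2 and 3 were below the narrow range of ARNT Flox, at a log2 change of −0.26 ± 0.34 (adjusted p = 0.995), and 0.03 ± 0.30 without replicate 3. Aldh3a2, a fatty aldehyde dehydrogenase that acts after the hydroxylases, had 1024, 817 and 863 CPM in AHR KO, against 779.9, 913 and 977 CPM in AHR Flox, a log2 change of 0.02 ± 0.18 (adjusted p = 0.984). Aldh3a2 had 922, 826 and 550.2 CPM in ARNT KO, against 829, 892 and 845 CPM in ARNT Flox, with replicate 3 far below the rest, at a log2 change of −0.16 ± 0.18 (adjusted p = 0.995), and 0.03 ± 0.13 without replicate 3.

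**Figure D4:**
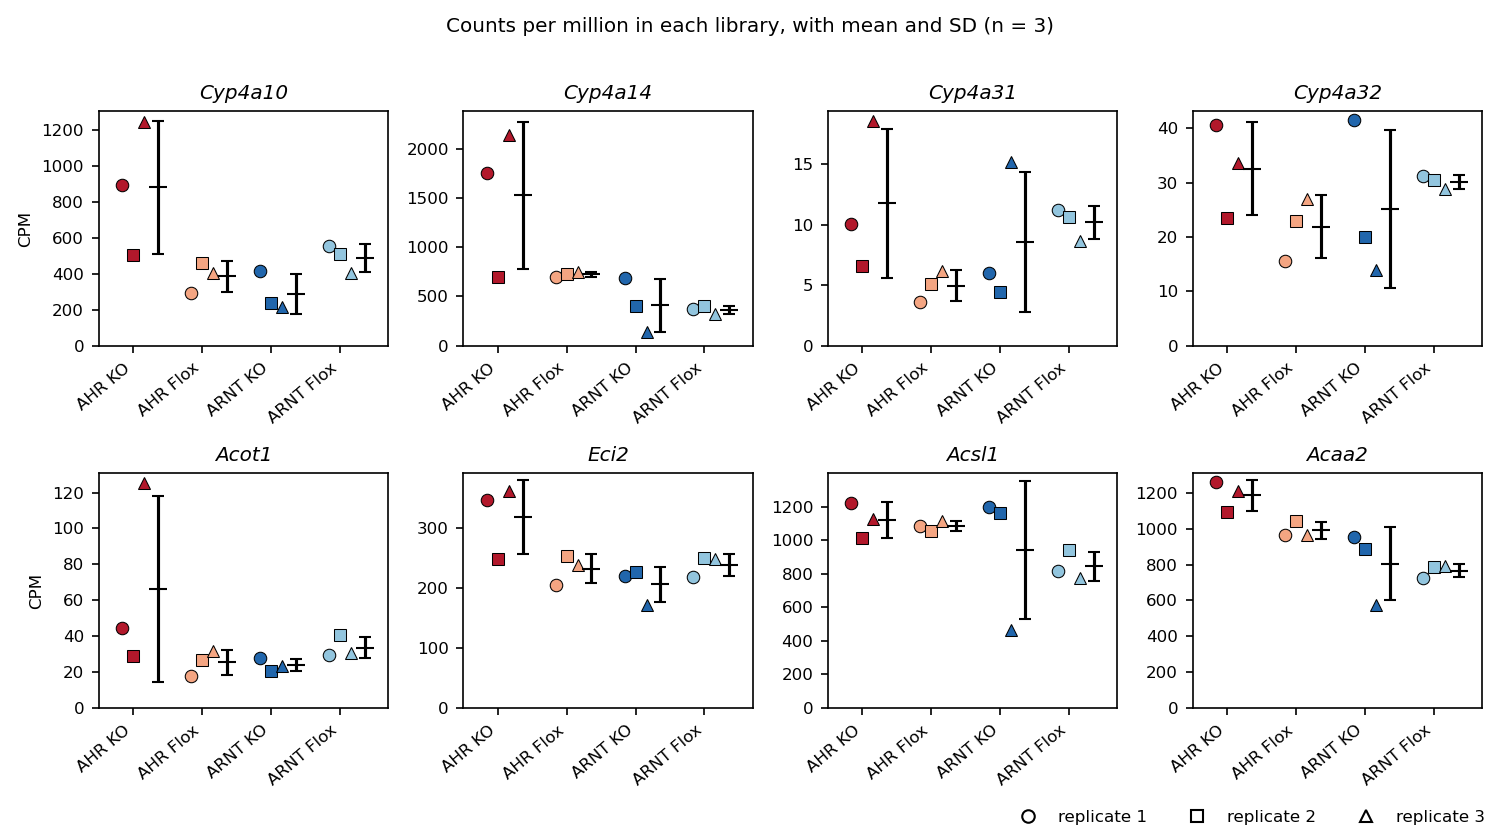
CPM of 8 members in each library, by group, on linear axes from 0; symbols mark the replicate number and the bars give the mean and SD of 3 libraries. In AHR KO, replicates 1 and 3 stand above replicate 2 for the Cyp4a genes, Acot1 and Eci2; in ARNT KO, replicate 3 is the lowest for Acsl1 and Acaa2 and the highest for Cyp4a31.

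The acyl-CoA thioesterases split acyl-CoA into free fatty acid and CoA. Acot1 (cytosolic), Acot2 (mitochondrial), Acot3 and Acot4 (both peroxisomal) are neighbours on chromosome 12, and 43.63% of the 50-base windows of Acot1 occurred unchanged in Acot2, so the split between these is uncertain too. Acot1 had 44.3, 28.6 and 125 CPM in AHR KO, against 17.5, 26.9 and 31.6 CPM in AHR Flox. AHR KO replicate 3 was by far the highest of all 12 libraries, replicate 1 was above the controls and replicate 2 lay among them. The log2 change was 1.39 ± 0.44, adjusted p = 0.223, but 0.52 without AHR KO replicate 3, and the adjusted p ran from 0.0365 to 0.516 over the alternatives with 11 or 12 libraries. Acot1 had 27.5, 20.8 and 23.5 CPM in ARNT KO, against 29.5, 40.4 and 30.8 CPM in ARNT Flox. The ARNT KO libraries all lay below the controls, the closest pair by little, at a log2 change of −0.49 ± 0.43 (adjusted p = 0.980), and −0.47 ± 0.49 without replicate 3. The difference between the knockouts was −1.87 ± 0.61, adjusted p = 0.378.

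Acot2 had 20.9, 19.5 and 32.4 CPM in AHR KO, against 13.0, 20.0 and 24.7 CPM in AHR Flox. AHR KO replicate 3 was highest and the other AHR KO libraries lay within the control range, at a log2 change of 0.34 ± 0.23, adjusted p = 0.611. Acot2 had 25.6, 20.8 and 21.7 CPM in ARNT KO, against 26.4, 30.4 and 27.3 CPM in ARNT Flox. As for Acot1, the 3 ARNT KO libraries were below the 3 controls, at a log2 change of −0.31 ± 0.23 (adjusted p = 0.948), and −0.27 ± 0.25 without replicate 3. Acot3 averaged 434 ± 60.6 CPM in AHR KO and 299.9 ± 102 CPM in AHR Flox (SD, n = 3 each), and 299 ± 193 CPM in ARNT KO and 330.2 ± 57.1 CPM in ARNT Flox. Its lowest library, ARNT KO replicate 3 at 77.0 CPM, was far below the rest, and the other ARNT KO libraries were above all their controls. Its log2 change in ARNT KO was −0.14 ± 0.47, and 0.32 ± 0.23 without that library. Acot4 averaged 163 ± 10.7 CPM in AHR KO and 148 ± 23.5 CPM in AHR Flox, and 146 ± 64.8 CPM in ARNT KO and 144 ± 20.1 CPM in ARNT Flox, with the same library lowest, at a log2 change of 0.02 ± 0.28 in ARNT KO, and 0.35 ± 0.15 without it. Vnn1, a pantetheinase, had 176, 105 and 248 CPM in AHR KO, against 129.8, 146 and 183 CPM in AHR Flox. Vnn1 had 147, 107 and 107 CPM in ARNT KO, against 161, 162 and 113 CPM in ARNT Flox. Its groups overlapped in both lines, at log2 changes of 0.21 ± 0.27 in AHR KO and −0.27 ± 0.27 in ARNT KO, and −0.19 ± 0.30 without replicate 3.

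Among the peroxisomal genes, Ehhadh, the bifunctional enzyme of peroxisomal beta oxidation that PPAR-alpha agonists induce, had 470.0, 529 and 445 CPM in AHR KO, against 355, 385 and 391 CPM in AHR Flox. Its AHR KO libraries all lay above its controls, and here replicate 2 was the highest, at a log2 change of 0.35 ± 0.14, adjusted p = 0.346. Ehhadh had 519, 360.1 and 405 CPM in ARNT KO, against 458, 505 and 406 CPM in ARNT Flox. The groups of that line overlapped, at a log2 change of −0.09 ± 0.14 (adjusted p = 0.998), and −0.05 ± 0.15 without replicate 3. The difference between the knockouts was −0.44 ± 0.20, adjusted p = 0.511. Hsd17b4, the other bifunctional enzyme, had 588, 459.9 and 591 CPM in AHR KO, against 507, 513 and 626 CPM in AHR Flox, with overlap at a log2 change of −0.01 ± 0.15. Hsd17b4 had 529, 488 and 379 CPM in ARNT KO, against 426, 456 and 429.5 CPM in ARNT Flox. ARNT KO replicates 1 and 2 were above the controls and replicate 3 below, at 0.09 ± 0.15 in 12 libraries and 0.22 ± 0.13 without replicate 3.

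Acaa1a and Acaa1b encode peroxisomal thiolases, and 37.94% of the 50-base windows of Acaa1a occurred unchanged in Acaa1b, so their split is uncertain. Acaa1a had 381, 259 and 417 CPM in AHR KO, against 271, 299.8 and 300.4 CPM in AHR Flox. Replicates 1 and 3 stood above the controls and replicate 2 below, at a log2 change of 0.28 ± 0.17, adjusted p = 0.557. Acaa1a had 281, 266 and 202 CPM in ARNT KO, against 255, 273 and 265 CPM in ARNT Flox, with replicate 3 the lowest, at a log2 change of −0.08 ± 0.17, and 0.05 ± 0.16 without replicate 3. Acaa1b averaged 1862 ± 180.2 CPM in AHR KO and 1536 ± 234 CPM in AHR Flox (log2 change 0.28 ± 0.23), and 1453 ± 542 CPM in ARNT KO and 1338 ± 150.4 CPM in ARNT Flox. The log2 change of Acaa1b in ARNT KO was 0.12 ± 0.23, and 0.34 ± 0.19 without replicate 3. Pex11a, a membrane protein of peroxisome division, ranged over 45.0 to 88.7 CPM across all 12 libraries and had log2 changes of −0.18 ± 0.23 in AHR KO and −0.10 ± 0.23 in ARNT KO, and −0.16 ± 0.26 without replicate 3.

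Of the mitochondrial genes, Eci2 and Eci1, isomerases that let unsaturated chains enter the spiral, had the highest log2 changes in AHR KO. Eci2 had 347, 247 and 361 CPM in AHR KO, against 205, 253 and 238 CPM in AHR Flox. AHR KO replicates 1 and 3 were well above the controls and replicate 2 lay within them, at a log2 change of 0.46 ± 0.16, adjusted p = 0.266. Eci2 had 219, 226 and 172 CPM in ARNT KO, against 217, 249.6 and 248 CPM in ARNT Flox. ARNT KO replicate 3 was the lowest of the 6, and the log2 change was −0.21 ± 0.15 (adjusted p = 0.948), and −0.09 ± 0.15 without replicate 3. The difference between the knockouts was −0.67 ± 0.22, adjusted p = 0.378. Eci1 had 229.6, 192 and 240.0 CPM in AHR KO, against 151, 187 and 170.3 CPM in AHR Flox. Each AHR KO value was above each control value, at a log2 change of 0.38 ± 0.14, adjusted p = 0.300. Eci1 had 190.2, 166 and 130.4 CPM in ARNT KO, against 163, 172 and 157 CPM in ARNT Flox. The groups overlapped there, at a log2 change of −0.02 ± 0.14, and 0.12 ± 0.12 without replicate 3. Eci2 is a peroxisomal as well as a mitochondrial enzyme.

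The thiolase of the last step, Acaa2, had 1262, 1093 and 1209.7 CPM in AHR KO, against 965, 1043 and 963 CPM in AHR Flox. The AHR KO libraries lay above the controls, the lowest of them by little, at a log2 change of 0.26 ± 0.17, adjusted p = 0.579. Acaa2 had 953, 887 and 573 CPM in ARNT KO, against 725, 784 and 791 CPM in ARNT Flox. ARNT KO replicates 1 and 2 were above the controls and replicate 3 was the lowest of 12, so the log2 change was 0.07 ± 0.16 in 12 libraries and 0.27 ± 0.10 (adjusted p = 0.213) without replicate 3. The trifunctional protein, which carries the middle steps for long chains, has its alpha subunit from Hadha and its beta subunit from Hadhb, and both genes lie head to head on chromosome 5. Hadhb had 194, 155 and 211 CPM in AHR KO, against 158, 158 and 168 CPM in AHR Flox, with replicate 2 of AHR KO the lowest of the 6, at a log2 change of 0.21 ± 0.12, adjusted p = 0.523. Hadhb had 157, 148 and 125 CPM in ARNT KO, against 166, 163 and 149.7 CPM in ARNT Flox, at a log2 change of −0.15 ± 0.12, and −0.06 ± 0.12 without replicate 3. Hadha averaged 510.0 ± 84.2 CPM in AHR KO and 462 ± 32.5 CPM in AHR Flox, and 410.5 ± 50.7 CPM in ARNT KO and 408 ± 24.6 CPM in ARNT Flox, a log2 change of 0.01 ± 0.14, and 0.11 ± 0.13 without ARNT KO replicate 3.

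The acyl-CoA dehydrogenases, which start each turn for very long (Acadvl), long (Acadl) and medium chains (Acadm), had close values. Acadvl had 666, 546 and 694 CPM in AHR KO, against 559, 532 and 531 CPM in AHR Flox. Acadl had 461, 387 and 434 CPM in AHR KO, against 341, 382 and 372 CPM in AHR Flox. Acadm had 765, 468 and 636 CPM in AHR KO, against 527, 530.1 and 512 CPM in AHR Flox. Of these 3 only Acadl had every AHR KO library above every control, and the log2 changes were 0.23 ± 0.14, 0.23 ± 0.16 and 0.25 ± 0.18, with adjusted p of 0.565, 0.623 and 0.642. In the other line Acadvl had 506, 483 and 343 CPM in ARNT KO, against 428, 441 and 431 CPM in ARNT Flox. Acadl had 374, 331 and 224 CPM in ARNT KO, against 292, 307 and 296 CPM in ARNT Flox. Acadm had 520.2, 495 and 343 CPM in ARNT KO, against 365, 418 and 382 CPM in ARNT Flox. Each of the 3 had ARNT KO replicates 1 and 2 above all controls and replicate 3 below all of them. Without replicate 3 the log2 changes were 0.19 ± 0.10 for Acadvl, 0.24 ± 0.10 for Acadl and 0.39 ± 0.16 for Acadm, with adjusted p from 0.244 to 0.378 (edgeR). Decr1, the dienoyl-CoA reductase for polyunsaturated chains, averaged 341 ± 55.6 CPM in AHR KO and 292 ± 8.53 CPM in AHR Flox, and 258 ± 52.7 CPM in ARNT KO and 252 ± 12.9 CPM in ARNT Flox, a log2 change of 0.04 ± 0.15, and 0.20 ± 0.12 without ARNT KO replicate 3. Etfdh, which passes the electrons to the respiratory chain, had log2 changes of −0.12 ± 0.18 in AHR KO and −0.05 ± 0.18 in ARNT KO, or 0.13 ± 0.15 without ARNT KO replicate 3, over 186 to 349 CPM across the libraries.

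The genes of activation and entry lay near 0 in AHR KO. Acsl1 had 1221, 1012 and 1126 CPM in AHR KO, against 1081, 1054 and 1114 CPM in AHR Flox. The 2 groups overlapped, at a log2 change of 0.05 ± 0.27, adjusted p = 0.971. Acsl1 had 1198, 1161 and 467 CPM in ARNT KO, against 817, 940.0 and 772 CPM in ARNT Flox. ARNT KO replicates 1 and 2 were above every control while replicate 3 was far below the other 11 libraries. The log2 change was 0.16 ± 0.27, adjusted p = 0.999 in 12 libraries, and 0.49 ± 0.11 (adjusted p = 0.0614) without replicate 3, within 0.0614 to 1.000 over the alternatives with 11 or 12 libraries. Cpt2, the inner carnitine palmitoyltransferase, had 198, 159 and 219 CPM in AHR KO, against 180.0, 194 and 199.5 CPM in AHR Flox. Cpt2 had 182, 171 and 129 CPM in ARNT KO, against 142, 165 and 146 CPM in ARNT Flox. Its log2 change was 0.01 ± 0.14 in AHR KO, with overlap, and 0.09 ± 0.14 in ARNT KO, with replicate 3 again the lowest, and 0.23 ± 0.12 without it. Cpt1a, the outer palmitoyltransferase and the control point of entry, averaged 751 ± 72.9 CPM in AHR KO and 825 ± 148 CPM in AHR Flox, and 705 ± 94.6 CPM in ARNT KO and 751 ± 74.2 CPM in ARNT Flox, a log2 change of −0.09 ± 0.15, and 0.01 ± 0.15 without ARNT KO replicate 3. Slc25a20, the carrier of acylcarnitine, and Crat, the carnitine acetyltransferase, ranged over 118 to 183 and 67.7 to 103 CPM, with log2 changes between 0.02 and 0.12 in both knockouts, with and without ARNT KO replicate 3.

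Fabp1 had 2244, 3021 and 2988 CPM in AHR KO, against 2426, 2516 and 3014 CPM in AHR Flox. The groups overlapped, at a log2 change of 0.05 ± 0.25 (adjusted p = 0.963). Fabp1 had 2668, 2382 and 1232 CPM in ARNT KO, against 2472, 2505 and 2146 CPM in ARNT Flox. ARNT KO replicate 3 stood far below the other 11 libraries, and the log2 change was −0.18 ± 0.25 with it and 0.09 ± 0.16 without it. The Fabp1 promoter is shown because it held the closest match to the binding motif of PPAR-alpha and RXR among the promoters of the members. In RefSeq's promoter table (GRCm38.p6), 27 of the 36 members had an entry. In the 250 bases before each start, on both strands, the direct repeat AGGTCA, any base, AGGTCA was searched with up to 2 mismatches in its 12 fixed letters; the GENCODE start of Fabp1 lies inside the RefSeq window, and the bases before it are printed. The stretch is chr6:71199629-71199826, plus strand, 5′ to 3′, with the 13 bases of the site in capitals, which match the motif on the minus strand with 1 mismatch.
Fabp1: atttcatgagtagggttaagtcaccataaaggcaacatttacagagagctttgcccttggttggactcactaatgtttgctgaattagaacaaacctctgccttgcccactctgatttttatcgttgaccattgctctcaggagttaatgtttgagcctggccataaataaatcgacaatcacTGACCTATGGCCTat
Of the members with an entry, 3 held a site with up to 2 mismatches (Fabp1, Acot4 and Creb3l3), where 3.24% of all 32851 promoters of the same length did, and 1 held a site with up to 1 mismatch, where 0.484% did. The members are counted here as genes, 27 with 30 promoters, while the shares are of promoters. A match describes the letters in this window and does not show binding.

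The regulators split into steady and variable genes. Ppara had 633, 586 and 658 CPM in AHR KO, against 635, 646 and 709.8 CPM in AHR Flox, with overlap at a log2 change of −0.08 ± 0.18, adjusted p = 0.906. Ppara had 691, 576 and 367 CPM in ARNT KO, against 541, 528 and 463 CPM in ARNT Flox. Replicates 1 and 2 of ARNT KO were above the controls and replicate 3 below, at a log2 change of 0.09 ± 0.18 in 12 libraries and 0.32 ± 0.11 (adjusted p = 0.198) without replicate 3. Creb3l3, a membrane-bound transcription factor that acts with PPAR-alpha in fasting, had 379, 287 and 438 CPM in AHR KO, against 343, 354 and 386 CPM in AHR Flox. Creb3l3 had 337, 358 and 252 CPM in ARNT KO, against 271, 322 and 284 CPM in ARNT Flox. AHR KO replicate 2 was below and replicate 3 above its controls, while in ARNT KO replicates 1 and 2 were above and replicate 3 below. Its log2 changes were 0.03 ± 0.16 in AHR KO and 0.11 ± 0.16 in ARNT KO, and 0.25 ± 0.15 without replicate 3. Pdk4 had 9.40, 13.5 and 25.1 CPM in AHR KO, against 5.65, 6.53 and 10.1 CPM in AHR Flox. The highest 2 AHR KO libraries were above the controls and replicate 1 was among them, at a log2 change of 1.11 ± 0.47, adjusted p = 0.374. Pdk4 had 27.9, 6.77 and 14.4 CPM in ARNT KO, against 14.3, 14.99 and 15.04 CPM in ARNT Flox. The ARNT KO libraries spread widely above, below and around tightly grouped controls, at a log2 change of 0.14 ± 0.45 (adjusted p = 1.000), and 0.23 ± 0.50 without replicate 3.

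Fgf21 varied the most of all members between mice of a group, with a residual SD of 0.99 on the log2 scale, where the median over the members was 0.25 and over all tested genes 0.19. It averaged 4.37 ± 5.02 CPM in AHR KO and 4.71 ± 2.10 CPM in AHR Flox, and 4.39 ± 2.24 CPM in ARNT KO and 4.04 ± 0.209 CPM in ARNT Flox (SD, n = 3 each), over a range of 1.2 to 10.2 CPM. The log2 change of Fgf21 in ARNT KO was 0.12 ± 0.69, and 0.02 ± 0.77 without replicate 3. Angptl4, a secreted inhibitor of lipoprotein lipase, averaged 186 ± 44.8 CPM in AHR KO and 129 ± 62.1 CPM in AHR Flox, and 94.3 ± 23.0 CPM in ARNT KO and 107 ± 51.4 CPM in ARNT Flox, over 51.7 to 235 CPM, and its log2 change in ARNT KO was −0.18 ± 0.42, or −0.35 ± 0.47 without replicate 3. At the other end, the residual SD was 0.15 for Slc25a20 and for Hadhb.

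The control lines differed from each other as well. This comparison shares its control libraries with both knockout comparisons, so its values are set beside theirs and not counted as separate evidence. In ARNT Flox against AHR Flox, edgeR called 0 of 36 members in 12 libraries, where 0.329% of all tested genes were called, with 7 at an unadjusted p under 0.05 (2 with higher values in ARNT Flox, where 10.5% of all genes were, and 5 with lower, where 9.33% were), and DESeq2 and limma-voom called 0. There were 27 members below 0 and 9 above, at a median log2 difference of −0.15, beside 50.1% below 0 over all tested genes. The cell type markers were read in the same comparison. Hepatocyte markers had 8 of 10 below 0, at a median of −0.22, and their sum without Alb was 32530 to 37716 CPM in ARNT Flox, against 39887 to 41835 CPM in AHR Flox. With Alb the sums overlapped, at 102234 to 125609 CPM in ARNT Flox and 120267 to 130426 CPM in AHR Flox. Stellate markers (6 of 6), endothelial markers (6 of 6), cholangiocyte markers (5 of 5) and lymphocyte markers (7 of 7) were above 0, and macrophage markers in 4 of 5 tested. The stellate sum was 329.7 to 407 CPM in ARNT Flox, against 239 to 318 CPM in AHR Flox, and the lymphocyte sum was 7.58 to 11.6 CPM in ARNT Flox, against 5.14 to 6.91 CPM in AHR Flox. Without ARNT KO replicate 3, 3 lymphocyte and 2 macrophage markers were called higher and 1 hepatocyte marker lower in ARNT Flox. The part of these markers in the members' values was not tested. All 3 ARNT Flox libraries lay below all 3 AHR Flox libraries in 13 of 36 members, where 17.7% of all tested genes did so, and above in 5 (Pdk4, Ehhadh, Cyp4a31, Cyp4a32 and Acot2), where 18.1% did so. Without ARNT KO replicate 3, edgeR called 4 members lower in ARNT Flox, where 4.51% of all tested genes were called lower, and 0 higher, where 6.38% were. In either direction these were 4 of 36 members, a share near the 10.9% of all tested genes called in that fit. ARNT KO replicate 3 is in neither group and enters this comparison through the shared estimate of spread, the count filter and the size factors.

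Those 4 genes, lower in ARNT Flox than in AHR Flox, act at separate steps. Acaa2 fell by 0.37 ± 0.09 on the log2 scale (adjusted p = 0.0240; 0.0196 to 0.487 over the alternatives with 11 or 12 libraries). Ppara fell by 0.38 ± 0.10 (adjusted p = 0.0345; 0.0286 to 0.473). Acsl1 fell by 0.36 ± 0.10 (adjusted p = 0.0420; 0.0420 to 0.661). Acadvl fell by 0.32 ± 0.09 (adjusted p = 0.0486; 0.0257 to 0.463). With the replicate number as a block, 1 of the 4 was called, Acaa2 (adjusted p = 0.0472). For each of the 4 the AHR Flox values given above lie wholly above the ARNT Flox values, and the ARNT KO changes of these genes without replicate 3 were 0.27 for Acaa2, 0.32 for Ppara, 0.49 for Acsl1 and 0.19 for Acadvl. An ARNT KO value above a low ARNT Flox value and an effect of ARNT loss cannot be told apart for them. Cyp4a14 was at −0.99 ± 0.48 and Cyp4a31 at 1.05 ± 0.46 in ARNT Flox against AHR Flox, so neighbouring genes of 1 cluster stood on opposite sides of 0.

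**Figure D5:**
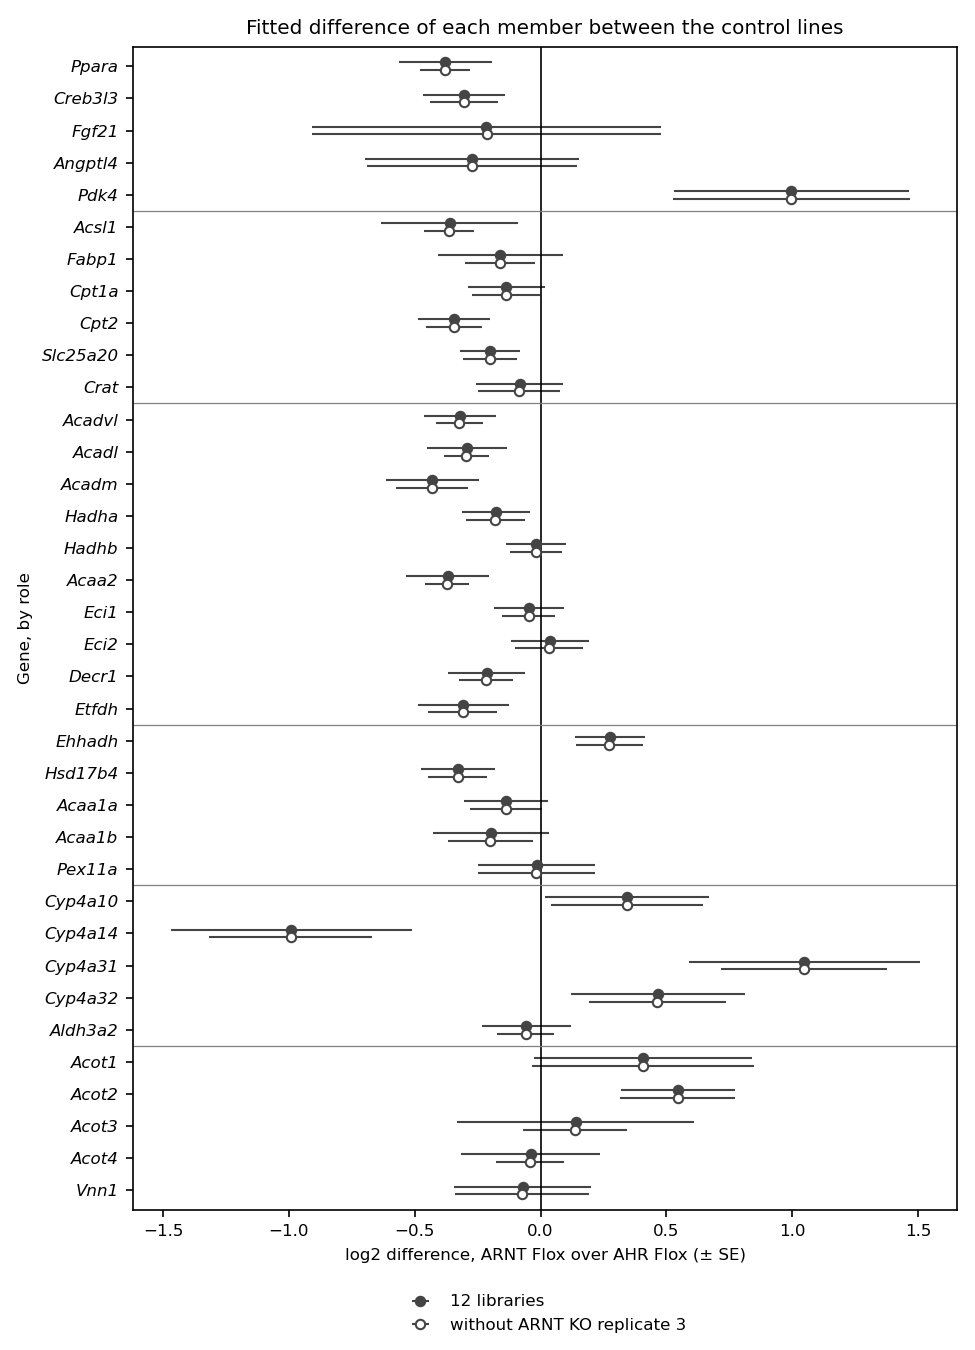
Fitted log2 difference of each member, ARNT Flox over AHR Flox, with bars of 1 SE, by role; filled points are the fit of 12 libraries and open points the fit without ARNT KO replicate 3. Most points lie left of 0, Cyp4a14 farthest, and Cyp4a31 and Pdk4 lie farthest right; leaving out that library shortens many bars and hardly moves the points.

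Other genes of the pathway, from a list of 76 that are not members, were read in the same fits. The table held 75 of them and 70 were tested. edgeR called 0 of 70 in any of the 4 comparisons with 12 libraries, with 8 in AHR KO, 1 in ARNT KO, 6 in the difference and 14 in ARNT Flox against AHR Flox at an unadjusted p under 0.05. Of all tested genes, 11.9%, 5.88%, 9.51% and 19.9% were at such a p in those comparisons, so these counts were near or under that background. In ARNT Flox against AHR Flox DESeq2 called 2 (Bdh1 and Acad12), and limma-voom called 0 in each comparison. The median log2 change of the 70 was 0.0062 in AHR KO, with 36 above 0 and 34 below, beside 0.22 for the 36 members. Above 0 were 2 of 8 other PPAR-alpha targets, 7 of 17 receptors and coregulators and 3 of 6 ketogenesis genes. Of the other mitochondrial, peroxisomal and omega oxidation genes, 10 of 16, 11 of 20 and 3 of 3 were above 0.

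In ARNT Flox against AHR Flox the fit without ARNT KO replicate 3 called 8 of 71 tested genes of that list, 6 lower and 2 higher, a share near the 10.9% of all tested genes called. Lower were Bdh1, which makes the ketone body hydroxybutyrate (log2 difference −0.55 ± 0.09, adjusted p = 0.00534), the short-chain dehydrogenase Acads (−0.33 ± 0.08), both subunits of the electron transfer flavoprotein, Etfa (−0.37 ± 0.08) and Etfb (−0.34 ± 0.08), the peroxisomal thiolase and carrier gene Scp2 (−0.51 ± 0.14), and Cyp4f13 (−0.43 ± 0.12). Higher were Acad12 (0.52 ± 0.09) and Fgfr1, a receptor of fibroblast growth factors (1.01 ± 0.26). Bdh1 had 518, 504 and 316 CPM in ARNT KO, 399.8, 382 and 373 CPM in ARNT Flox, and 538, 524 and 622 CPM in AHR Flox. Of the 6 ketogenesis genes, 5 lay below 0 in ARNT Flox, at a median of −0.42 over the 6. The same 6 genes had a median of 0.15 in ARNT KO with 12 libraries and 0.25 without replicate 3, and of −0.0053 in AHR KO in the fit without that library.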

How the data were processed

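Liver RNA of 12 mice was sequenced after poly-A selection, and the authors deposited raw read counts per gene. The submitters' processing notes name mm10, DESeq2 1.20.0, R 3.5.1, bcl2fastq 2.20 and STAR in versions 2.5.4b and 2.6.0c; no source used here names the counter, the annotation or the strand setting, so reads from overlapping or near-identical genes cannot be told apart.

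Counts were analysed in R 4.3.3 with edgeR 4.0.16 (filterByExpr with min.count 10 and min.total.count 15, TMM factors, a mean for each of 4 groups, quasi-likelihood F tests, Benjamini-Hochberg adjustment over 13968 genes, called at an adjusted p under 0.05). Tested genes held 99.98% of counts, and a count of 3 equals 0.0861 to 0.126 CPM by library. Each fit used all libraries, so that groups share the estimate of spread, and was repeated without ARNT KO replicate 3. DESeq2 1.42.0, limma-voom (limma 3.58.1) with and without sample quality weights, other size factors, no count filter, the contrast's groups alone, a block for the replicate number, and leaving out libraries were alternatives. The edgeR, DESeq2 and limma steps were tested on simulated data. RPKM used exonic union lengths of GENCODE M21, and sequences came from its transcripts and from RefSeq promoters with Python 3.11.15, Biopython 1.88 and pandas 2.3.3; figures used matplotlib 3.10.9.

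The labels give a replicate number and no pairing. Deviations of same-numbered AHR Flox and ARNT Flox libraries correlated across genes at 0.327, 0.153 and 0.101, and no other pair of groups had all 3 correlations above 0.1. Libraries of unlike number reached 0.138 for AHR Flox 2 with ARNT Flox 3 and 0.216 for AHR KO 1 with ARNT KO 2, but none reached 0.327. The other pairs of unlike number between AHR Flox and ARNT Flox were below 0, from −0.254 to −0.00548. Whether the numbers pair the mice is therefore not settled, and the block was used as an alternative only. No 2 libraries agreed within sampling noise. Members and gene lists were chosen with earlier results of these data known. Values in every library are given for members among the 12 smallest p of any comparison and for Acsl1, called in ARNT Flox against AHR Flox without ARNT KO replicate 3; other members are given by mean and range, and other pathway genes are named where called, except for results that are not reported here. Each p-value sets a difference against the spread between mice within groups of 3, which was estimated over all 4 groups together.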

Additional observations from a re-analysis of the deposited data

How the results depend on the processing

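In 12 libraries no member passed the threshold in any comparison with edgeR. That count was 0 to 0 over leaving out 1 library in AHR KO, in ARNT KO and in the difference, and 0 to 4 in ARNT Flox against AHR Flox, where the 4 came without ARNT KO replicate 3. Leaving out that library and another gave 0 to 5 in AHR KO, 0 to 1 in ARNT KO, 0 to 2 in the difference and 0 to 10 in ARNT Flox against AHR Flox. DESeq2 called 2 in AHR KO and 1 in the difference, limma-voom with quality weights 2 in the difference and 8 in ARNT Flox against AHR Flox, and the fit of those 2 groups alone 10. With the replicate block and all 12 libraries, 0 members were called in each comparison, and the count over all tested genes in ARNT Flox against AHR Flox was 23, beside 46 without the block. Over all tested genes, leaving out 1 library gave 5 to 136 calls in AHR KO (11 with all), 1 to 193 in ARNT KO (8), 1 to 194 in the difference (6) and 12 to 1532 in ARNT Flox against AHR Flox (46); the highest of each range came without ARNT KO replicate 3. The other choices gave 10 to 359, 1 to 422, 4 to 238 and 23 to 2395. Leaving out ARNT KO replicate 3 and another library gave 24 to 105 calls over all tested genes in AHR KO. In ARNT Flox against AHR Flox it gave 517 to 1737. Some of those fits held 1 ARNT KO library, so no such range is given for ARNT KO or the difference. The cause was not tested.

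The 4 further settings were chosen after seeing the data, each without ARNT KO replicate 3. DESeq2 called 5 members in AHR KO, 1 in ARNT KO, 2 in the difference and 10 in ARNT Flox against AHR Flox. In that last comparison limma-voom called 5, the replicate block 1 and TMM without the 50 most abundant genes 4. Over all tested genes these 4 settings gave 84 to 612 calls in AHR KO and 141 to 581 in ARNT KO. They gave 128 to 568 in the difference and 1420 to 1936 in ARNT Flox against AHR Flox.

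Over the alternatives with 11 or 12 libraries, those 4 settings aside, the log2 value changed sign at least once in 12 of 36 members in AHR KO, 28 in ARNT KO, 18 in the difference and 12 in ARNT Flox against AHR Flox; none of these values was called in any of them. In each comparison the 12 members with the smallest p in 12 libraries were followed through every setting, so the 12 differ between comparisons. Among them, sign changes were all in ARNT KO. Over leaving out libraries, Fabp1 ran from −0.39 to 0.18, Ehhadh from −0.34 to 0.20, Cyp4a32 from −0.83 to 0.48, Aldh3a2 from −0.31 to 0.12 and Vnn1 from −0.44 to 0.037. Without ARNT KO replicate 3, Fabp1 was at 0.093 with DESeq2, 0.096 with limma-voom, 0.12 with the replicate block and 0.090 with TMM without the 50 most abundant genes. Cyp4a32 was at 0.036, 0.027 and 0.032 with DESeq2, the replicate block and that TMM. Aldh3a2 was at 0.035 with DESeq2, 0.033 with limma-voom, 0.044 with the replicate block and 0.033 with that TMM. Of 48 results (12 members in each of 4 comparisons, picked by p in that comparison), 30 kept direction and side of the threshold in every alternative with 11 or 12 libraries, those 4 settings aside.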
